A study of Mus musculus with 47 samples.

Results

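A list of 10 genes of brain endothelial cells was followed here across the brain libraries of the series: Cldn5, Ocln, Cdh5, Pecam1, Slc2a1, Mfsd2a, Slco1a4, Abcb1a, Flt1 and Tek. They were chosen as a list of names, 10 of the 55416 genes in the deposited count tables, and each was found in both tables by its symbol and Ensembl identifier. The animals were 3xTg mice, a model of Alzheimer's disease that carries human APP and tau transgenes under the neuronal Thy1 promoter and a mutant presenilin-1, and every library came from this genotype, the Control diet included. Mice of both sexes were given, from 6 months of age, either Control food or food low in isoleucine (IleR), leucine (LeuR) or valine (ValR), the branched-chain amino acids, and whole-tissue brain RNA was collected after 9 months. There were 14 male libraries, of which 4 were ValR, 3 LeuR, 3 IleR and 4 Control, and 23 female libraries, of which 6 were ValR, 6 LeuR, 5 IleR and 6 Control. A further 10 male libraries in the labels have no column in the male count table and were not analysed here. The question put to the data was whether the level of any of these genes differed between the diets in either sex.

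The blood-brain barrier is formed by the endothelial cells of brain capillaries, which are sealed to each other by tight junctions, carry nutrients across by dedicated transporters, pump many drugs back into the blood and hold vesicle traffic at a low rate. Signals from surrounding astrocytes, neurons and pericytes, the Wnt7 and norrin ligands among them, induce and keep this state. The 10 genes code for proteins of the junctions (Cldn5, Ocln, Cdh5, Pecam1), for transporters (Slc2a1, Mfsd2a, Slco1a4, Abcb1a) and for receptors of vascular growth factors (Flt1, Tek).

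Levels are given as CPM, counts relative to the library total after TMM scaling, and differences as log2 fold changes with their standard error (SE). Each test is the quasi-likelihood F test of edgeR, adjusted by the Benjamini-Hochberg method over all genes tested in a sex and called at an adjusted p under 0.05. Total counts ran from 12682687 to 25722333 in males and from 10672599 to 21370973 in females, and the lowest count of any of the 10 genes in any library was 70, for Ocln. The study counts its groups in animals, and the p-values measure the spread between these libraries. In these bulk libraries, fewer endothelial cells and less RNA per endothelial cell cannot be told apart. The libraries also differed in which brain regions they held. A hindbrain score, the mean log2 CPM of cerebellum and brainstem marker genes minus that of forebrain marker genes, ran from -7.78 to -4.87 in Control males and from 4.27 to 5.91 in ValR males, with IleR males from 1.63 to 3.79 and the LeuR males at -4.03, 0.94 and 4.40. It was built from 34 marker genes in males and 26 in females, with 11 and 3 brainstem genes. A unit of the score is therefore not the same measure in both sexes. The sum of 11 cerebellum marker genes was 52.7 to 108 CPM in Control males against 1681 to 5305 CPM in ValR males, while that of 12 forebrain marker genes was 1137 to 3236 CPM against 32.3 to 69.6 CPM. Diet and regional makeup therefore cannot be told apart for IleR or ValR against Control in males, and 2 of the 3 LeuR males stood on the hindbrain side as well. In females, 2 libraries of each diet had a mean log2 CPM of the cerebellum list over 4 and the other 15 were under it.

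Promoter sequences of RefSeq, 250 bases before to 50 bases after a transcript start on GRCm38.p6, were at hand for 8 of the 10 genes, in 9 windows, since Ocln had 2 that overlap. They were searched on both strands for the ETS core letters CAGGAA or CCGGAA, the core bound by factors such as ERG and ETS1 that act in endothelial cells. The letters stood in 3 of the 9 windows, which are shown because they include the 2 genes with the widest spread over libraries, Ocln and Mfsd2a. In the sequences below the capitals mark the ETS letters as they stand on the printed strand, where TTCCTG is the reverse complement of CAGGAA.
Ocln, chr13:100552669-100552968, minus strand: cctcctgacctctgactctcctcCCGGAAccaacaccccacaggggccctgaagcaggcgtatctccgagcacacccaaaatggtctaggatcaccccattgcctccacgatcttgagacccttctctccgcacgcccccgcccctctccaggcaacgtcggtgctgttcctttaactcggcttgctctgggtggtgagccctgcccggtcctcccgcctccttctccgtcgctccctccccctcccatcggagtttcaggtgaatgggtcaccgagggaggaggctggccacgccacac
Mfsd2a, chr4:122961139-122961438, minus strand: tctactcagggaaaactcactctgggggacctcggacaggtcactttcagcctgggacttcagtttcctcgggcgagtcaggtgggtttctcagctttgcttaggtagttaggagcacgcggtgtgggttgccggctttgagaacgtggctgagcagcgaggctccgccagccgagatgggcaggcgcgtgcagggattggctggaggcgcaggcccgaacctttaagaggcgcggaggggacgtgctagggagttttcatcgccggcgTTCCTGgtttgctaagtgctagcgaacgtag
Tek, chr4:94739039-94739338, plus strand: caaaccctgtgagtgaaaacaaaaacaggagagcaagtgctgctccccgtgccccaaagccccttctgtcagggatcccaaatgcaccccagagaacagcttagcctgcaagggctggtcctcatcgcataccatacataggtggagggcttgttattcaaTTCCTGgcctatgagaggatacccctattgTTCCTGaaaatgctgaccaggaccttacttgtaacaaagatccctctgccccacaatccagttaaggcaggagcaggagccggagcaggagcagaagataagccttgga
Of 32851 promoters of the same length, 41.4% held the ETS letters, so that 3 of 9 windows is not above the share of all promoters. TCF/LEF letters (CTTTGA) stood in the windows of Mfsd2a, with 1 match, and Abcb1a, with 2 matches, against 16.0% of all promoters. SOX letters (ACAATG) stood in that of Slco1a4 against 12.6%, and FOX letters (GTAAACA) in that of Abcb1a against 3.65%. KLF letters (CCACCC) stood in 4 of the 9 windows, those of Abcb1a and Flt1 and both of Ocln, against 31.5% of all promoters. The Abcb1a window (chr5:8566841-8567140, plus strand) belongs to a RefSeq transcript start upstream of the gene start that GENCODE M21 gives, so that its matches do not describe the sequence at that gene start. A match is a description of these letters and not a binding site.

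All 10 genes are protein-coding. On GRCm38, Cldn5 (chr16:18776847-18778262, plus strand) is a gene of 1 exon, whereas Ocln (chr13:100496507-100552718, minus strand) has 10 separate exon blocks. Slc2a1 (chr4:119108711-119137983) shares 105 exon bases with an antisense gene and Abcb1a (chr5:8660077-8748575) shares 553 with a gene on the other strand, and whether the counting used strand is not stated in the sources used here. Gm42686, the gene opposite Abcb1a, was at 0 to 0.436 CPM in every library. The near copy of Abcb1a, Abcb1b, was at 1.61 to 5.22 CPM, and Slco1a5, a relative of Slco1a4, at no more than 1.48 CPM in males. The level of Abcb1a was thus far above that of Abcb1b, and in males that of Slco1a4 far above that of Slco1a5. Another gene of the Slco family, Slco1c1, had means of 57.3 CPM in Control males and 43.9 CPM in Control females.

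Per kilobase of exon, the highest level on the Control diet was that of Slc2a1, the GLUT1 glucose transporter of the capillary wall. It stood at 34.4 ± 5.56 CPM per kb (SD, n = 4) in males and 27.9 ± 3.06 CPM per kb (SD, n = 6) in females. Cldn5, the main claudin of brain capillaries, followed at 23.5 ± 3.94 CPM per kb in males and 23.3 ± 2.88 CPM per kb in females, and its range overlapped that of Slc2a1 in each sex. After Cldn5 came a gap in both sexes. The next gene was Abcb1a in males (9.09 ± 1.53 CPM per kb) and Mfsd2a in females (7.43 ± 0.819 CPM per kb), and neither overlapped Cldn5. From there down to the lowest gene, neighbouring ranges overlapped except between Cdh5 and Tek in males and between Flt1 and Pecam1 in females. Ocln was the lowest of the 10 in each sex, at 2.22 ± 0.733 CPM per kb in males and 2.13 ± 0.749 CPM per kb in females.

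**Figure D1:**
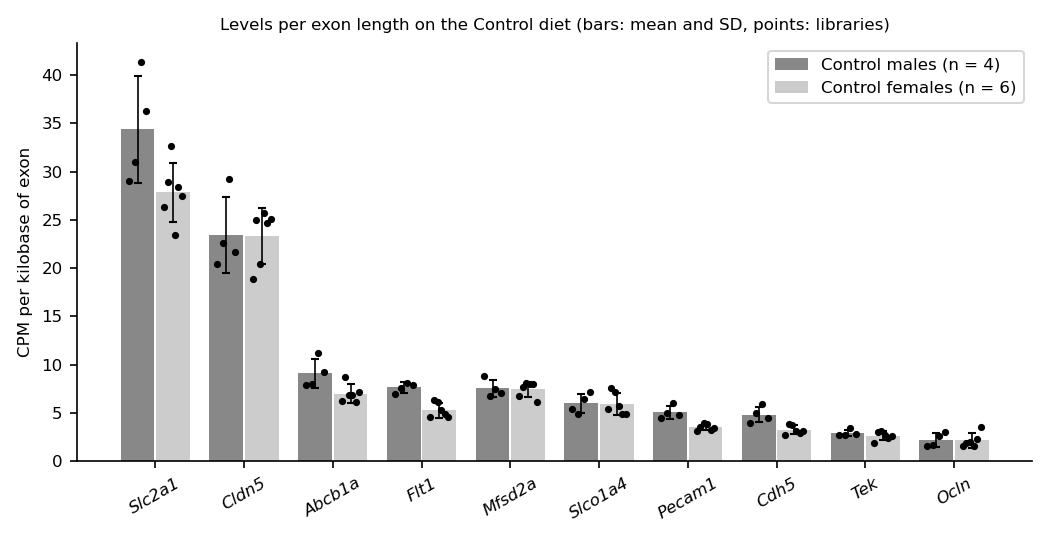
Levels of the 10 genes on the Control diet in CPM per kilobase of exon (y axis), with bars for the mean, error bars for the SD and points for single libraries, 4 male and 6 female. Slc2a1 and Cldn5 stand apart from the other 8 genes in each sex, and Ocln is lowest.

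Among the junction genes, Ocln was the only gene of the 10 whose level rose on a restricted diet, in ValR against Control males. Ocln codes for occludin, a membrane protein of tight junctions in brain capillaries and in epithelia such as the choroid plexus. Its level was 6.54, 6.98, 11.1 and 12.9 CPM in Control males and 16.4, 15.6, 15.9 and 16.6 CPM in ValR males. The ValR libraries lay close together and all above the Control libraries, with no overlap. The means were 16.1 ± 0.486 CPM in ValR (SD, n = 4) and 9.36 ± 3.10 CPM in Control (SD, n = 4). The log2 fold change was 0.78 (SE 0.257), with an adjusted p of 0.0416 by edgeR's quasi-likelihood test. Against this 1 of 10 genes stands the background of the comparison, in which 23.4% of the 22197 genes tested were called, 5204 in all, and 26.4% did not overlap between the groups.

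The call of Ocln was near the threshold. It passed in 6 of the 14 fits that each left out a male library, with a log2 fold change of 0.65 to 0.97 and an adjusted p of 0.0169 to 0.116 (edgeR with Benjamini-Hochberg adjustment). It was lost without Control 1, Control 3, ValR 7, ValR 9, ValR 10, ValR 12, IleR 14 or LeuR 20. With the hindbrain score as a covariate its log2 fold change was -0.90 (SE 0.490, adjusted p = 0.604), a change of sign, and no gene was called in that fit. Since the scores of Control and ValR males do not overlap, that fit does not divide diet from region. In the same libraries all 11 cerebellum marker genes rose and all 12 forebrain marker genes fell in ValR against Control males, and 9 of 11 tested brainstem marker genes rose. The brainstem genes summed to 0.838 to 24.3 CPM in Control males and 117 to 663 CPM in ValR males. A gene could enter the tests through a restricted diet alone, so the brainstem count favours genes that are high there.

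In IleR males Ocln stood at 12.0, 14.6 and 19.0 CPM and in LeuR males at 17.5, 12.3 and 7.73 CPM. The IleR range overlapped that of Control only between its lowest library and the highest of Control, whereas LeuR ran from within the Control range to above it. The log2 fold change against Control was 0.69 (SE 0.273, adjusted p = 0.105) for IleR and 0.42 (SE 0.275, adjusted p = 0.358) for LeuR, by edgeR's quasi-likelihood test.

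Cldn5, whose protein closes the tight junction to small molecules, overlapped Control on every restricted diet in males. Its level was 28.9, 32.1, 41.4 and 30.7 CPM in Control males, 42.0, 37.6 and 34.7 CPM in IleR, 43.4, 41.7 and 32.7 CPM in LeuR and 30.2, 29.9, 32.4 and 31.4 CPM in ValR. The ValR libraries were the tightest set and sat below every IleR and LeuR library, while Control overlapped all of them. The log2 fold changes against Control were 0.20 on IleR, 0.24 on LeuR and -0.10 on ValR, none of them called. Without the Control 4 library, which had the highest Control level, the LeuR value was 0.36 with an adjusted p of 0.0444 (edgeR with Benjamini-Hochberg adjustment), in a fit that called 3902 genes.

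Cdh5 codes for VE-cadherin, the adhesion molecule of endothelial adherens junctions. It was at 16.8, 21.0, 24.7 and 18.7 CPM in Control males, 15.8, 17.1 and 16.8 CPM in IleR, 21.7, 19.2 and 15.1 CPM in LeuR and 15.6, 20.0, 17.3 and 14.0 CPM in ValR. Means were lower than in Control on each restricted diet, with overlapping libraries throughout. The log2 fold changes were -0.29 on IleR, -0.12 on LeuR and -0.28 on ValR, with adjusted p of 0.250, 0.674 and 0.203 by edgeR's quasi-likelihood test. Pecam1, which codes for the platelet and endothelial adhesion molecule CD31, ran from 27.6 to 37.6 CPM in Control males, 24.6 to 31.7 CPM in IleR, 25.2 to 42.0 CPM in LeuR and 25.5 to 45.5 CPM in ValR. Its log2 fold changes were -0.18, -0.02 and 0.07, none of them called.

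**Figure D2:**
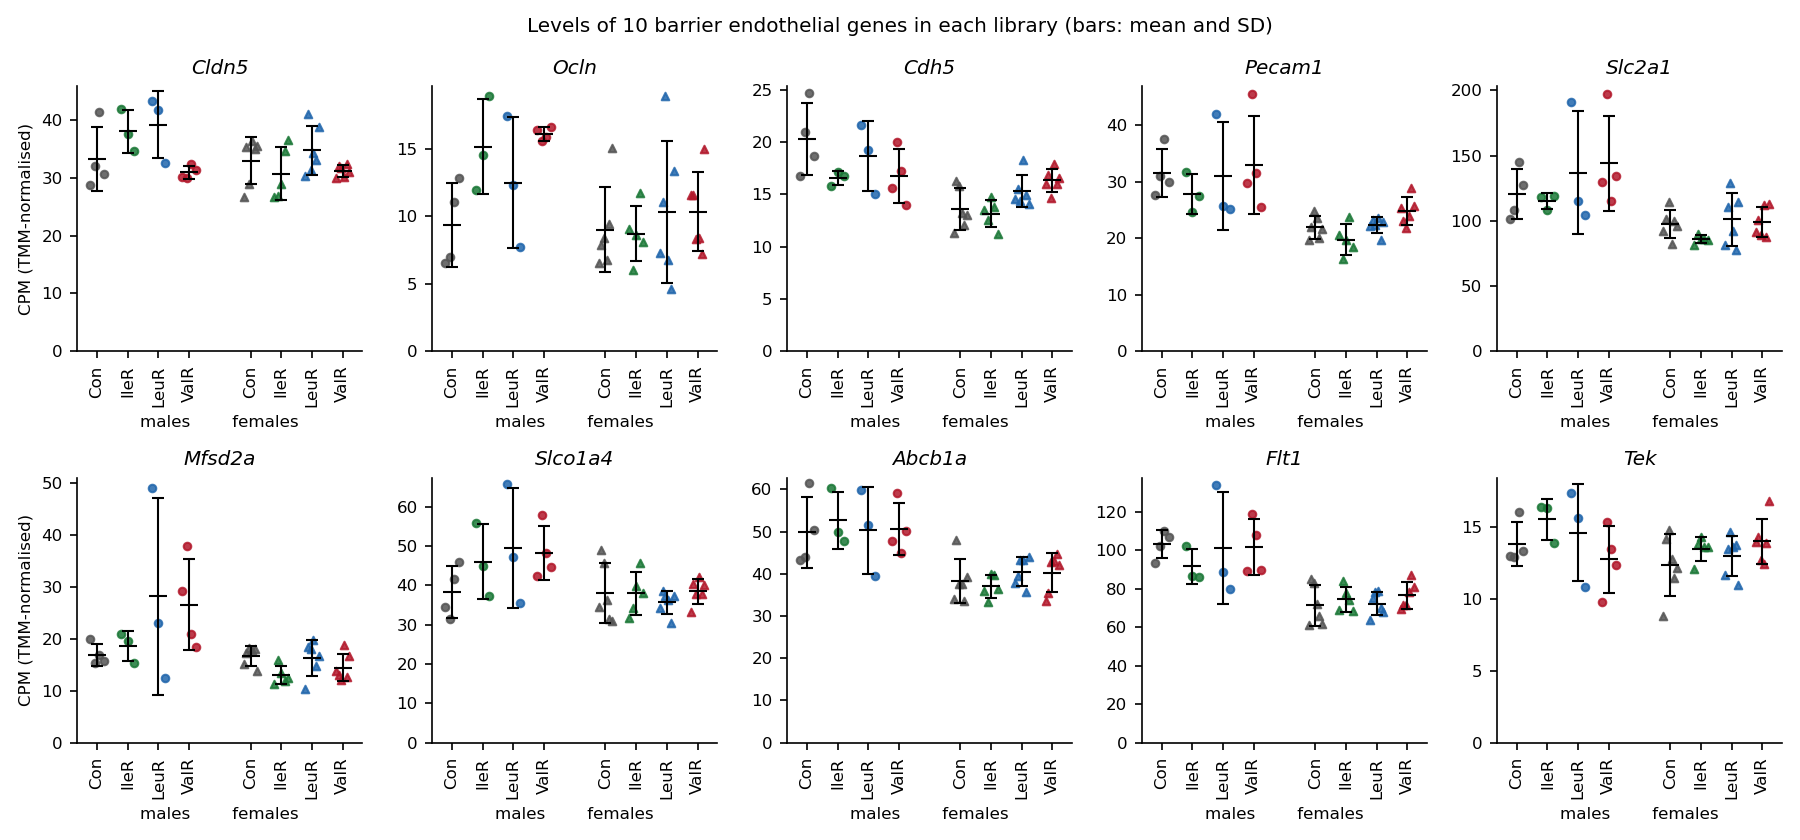
Level of each of the 10 genes in CPM (y axis) in every library, with males and females apart and diets along the x axis (bars: mean and SD). Ocln in ValR males forms a tight group above the 4 Control males, and single LeuR and ValR male libraries reach the highest Mfsd2a and Slc2a1 levels.

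Of the transporters, Mfsd2a varied most. It codes for the carrier of lysophosphatidylcholine-bound docosahexaenoic acid, which also holds down vesicle transport across brain endothelium. Its level was 19.9, 15.3, 16.8 and 15.8 CPM in Control males, 20.9, 19.7 and 15.4 CPM in IleR, 49.1, 23.0 and 12.4 CPM in LeuR and 29.2, 37.9, 20.9 and 18.3 CPM in ValR. Control and IleR males stayed within a narrow band, whereas LeuR males held both the lowest and the highest library of the 14. The log2 fold change against Control was 0.74 (SE 0.362, adjusted p = 0.212) for LeuR, 0.65 (SE 0.340, adjusted p = 0.193) for ValR and 0.14 for IleR by edgeR with Benjamini-Hochberg adjustment. The LeuR value turned on single libraries. For all 10 genes, LeuR 19 was the highest and LeuR 21 the lowest of the LeuR males. Without LeuR 19 it was 0.06 (SE 0.289, adjusted p = 0.939), and without LeuR 21, the LeuR library with a hindbrain score nearest to Control, it was 1.12 (SE 0.302, adjusted p = 0.0293, in a fit that called 3311 genes). LeuR 19 was also the highest of the 14 male libraries for the summed blood list (19676 CPM) and the summed choroid plexus list (4986 CPM). The lowest and highest sums of 25 other endothelial genes in males, 462 and 665 CPM, were both in LeuR libraries. So was the highest sum of 12 pericyte genes, 427 CPM. The part of these in the Mfsd2a level of LeuR 19 was not tested.

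Slc2a1 was at 102, 109, 145 and 127 CPM in Control males, 119, 108 and 119 CPM in IleR, 191, 115 and 105 CPM in LeuR and 130, 197, 115 and 134 CPM in ValR. LeuR 19 and ValR 9, the libraries that were highest for Mfsd2a, were also the highest for Slc2a1, and the other libraries overlapped. Log2 fold changes were -0.07 on IleR, 0.18 on LeuR and 0.26 on ValR, none of them called. Slco1a4, an organic anion transporter of the capillary wall, was at 34.5, 31.4, 41.5 and 45.8 CPM in Control males, 55.9, 45.0 and 37.1 CPM in IleR, 65.6, 47.1 and 35.4 CPM in LeuR and 42.2, 57.8, 48.3 and 44.7 CPM in ValR. Each restricted diet had a higher mean than Control, with log2 fold changes of 0.26, 0.37 and 0.33, and each overlapped Control, and none was called. Abcb1a, which codes for the drug efflux pump P-glycoprotein, ran from 43.4 to 61.4 CPM in Control, 47.8 to 60.4 CPM in IleR, 39.5 to 60.0 CPM in LeuR and 45.1 to 59.2 CPM in ValR. Its log2 fold changes were 0.08, 0.02 and 0.02, none of them called.

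The receptor genes showed little difference between diets. Flt1, which codes for VEGF receptor 1, ran from 93.4 to 110 CPM in Control males, 85.9 to 102 CPM in IleR, 80.0 to 134 CPM in LeuR and 89.5 to 119 CPM in ValR, with log2 fold changes of -0.17, -0.03 and -0.02. Tek, which codes for the angiopoietin receptor TIE2, was at 12.9, 12.9, 16.0 and 13.3 CPM in Control males. It ran from 13.9 to 16.4 CPM in IleR, 10.8 to 17.3 CPM in LeuR and 9.79 to 15.3 CPM in ValR, with log2 fold changes of 0.17, 0.08 and -0.12. Neither receptor was called in any of the comparisons.

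Counted over the list, none of the 10 genes was called in males by edgeR for IleR or LeuR against Control, where 1 and 0 of them had an unadjusted p under 0.05 (29.5% and 26.9% of all genes), and DESeq2 and limma-voom called 0 of them as well. The backgrounds of these comparisons were 15.2% of 22197 genes called for IleR (3381 genes) and 10% for LeuR (2221 genes) by edgeR, with 4366 and 3611 genes by DESeq2 and 3702 and 2411 by limma-voom. The median log2 fold change of the 10 genes was 0.11 on IleR, 0.13 on LeuR and 0.04 on ValR, beside 0.04, 0.05 and 0.03 over all genes tested. These 3 comparisons share the 4 Control libraries.

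**Figure D3:**
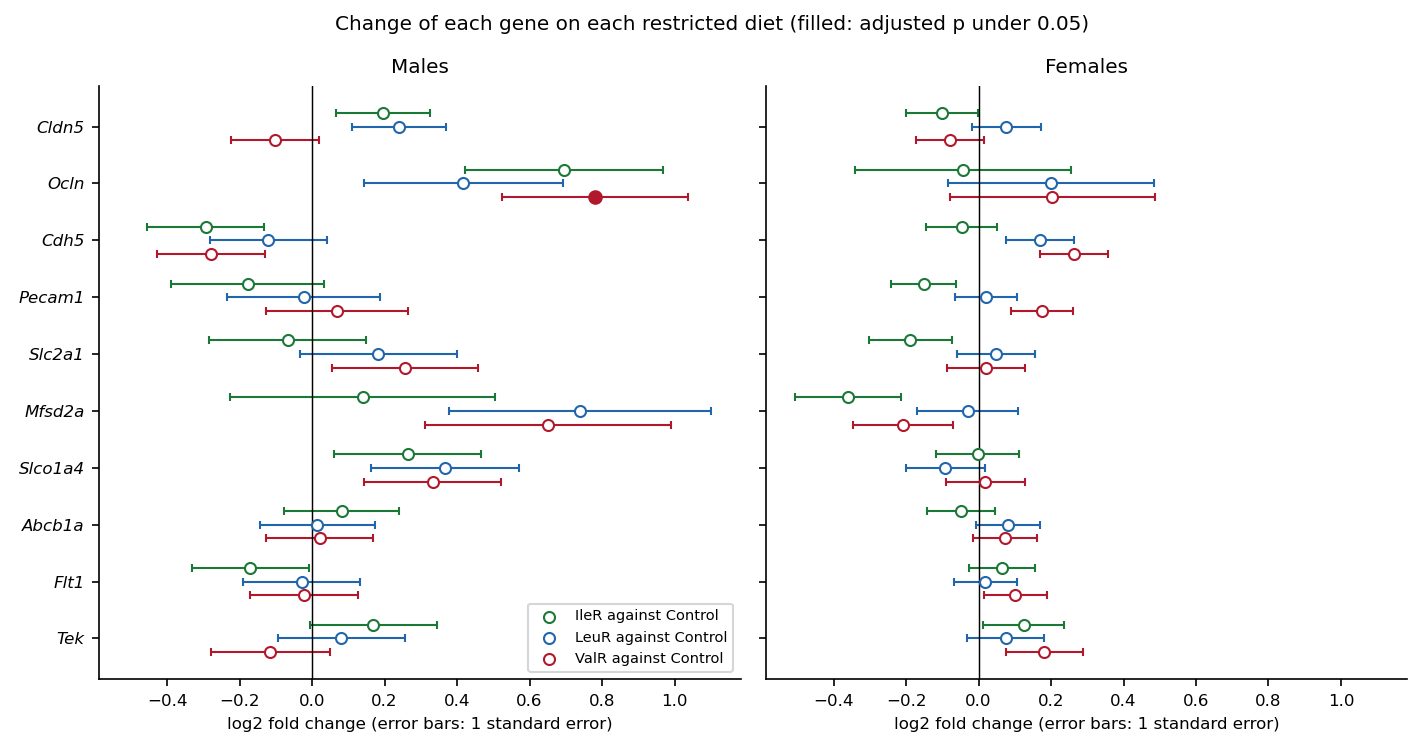
Log2 fold change of each gene (x axis, error bars 1 SE) on IleR, LeuR and ValR against Control in males and in females, with filled points for an adjusted p under 0.05. The only filled point is Ocln in ValR males at 0.78, and the male estimates of Mfsd2a and Ocln have the widest error bars of that panel.

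In females none of the 10 genes was called against Control on any diet by edgeR's quasi-likelihood test, and the background was 0% of 20344 genes for IleR, LeuR and ValR alike, with 573, 822 and 768 genes at an unadjusted p under 0.05. DESeq2 called 8, 1 and 0 genes of the whole table and limma-voom 1, 0 and 0, with none of the 10 among them. At an unadjusted p under 0.05 stood 1 of the 10 on IleR, 0 on LeuR and 1 on ValR. The median log2 fold change of the 10 genes was -0.05 on IleR, 0.06 on LeuR and 0.09 on ValR, beside -0.010, 0.0026 and -0.0087 over all genes tested.

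The female differences from Control with the smallest p were those of Cdh5 on ValR and Mfsd2a on IleR. Cdh5 ran from 11.3 to 16.3 CPM in Control females with a median of 13.1 CPM, and from 14.6 to 17.9 CPM in ValR females with a median of 16.3 CPM. The ranges overlapped, and the log2 fold change was 0.26 (SE 0.0932, adjusted p = 1.000 by edgeR). Mfsd2a ran from 13.7 to 18.2 CPM in Control females with a median of 17.6 CPM, and was at 11.3, 15.9, 13.5, 12.0 and 12.5 CPM in IleR females. All but 1 of the IleR libraries lay below the Control range, and the log2 fold change was -0.36 (SE 0.146, adjusted p = 1.000 by edgeR). Ocln ran from 6.51 to 15.1 CPM in Control females, 6.03 to 11.7 CPM in IleR, 4.58 to 18.9 CPM in LeuR and 7.20 to 15.0 CPM in ValR. The ranges overlapped, and IleR had the narrowest. The log2 fold changes of this gene were -0.04, 0.20 and 0.20 with SEs of 0.298, 0.284 and 0.283. By a normal approximation the 95% interval of the ValR value was -0.35 to 0.76. That of the male value of 0.78 was 0.28 to 1.28, and the 2 intervals overlapped.

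Cldn5 had a median of 35.2 CPM in Control females and of 29.0, 33.7 and 31.4 CPM in IleR, LeuR and ValR. Slc2a1 had medians of 97.9, 86.1, 101 and 96.2 CPM in the same order, and Flt1 of 69.0, 74.3, 72.5 and 75.0 CPM. Pecam1 had medians of 21.8, 19.8, 22.6 and 24.6 CPM, Abcb1a of 37.6, 36.4, 41.4 and 42.5 CPM, Slco1a4 of 35.4, 38.1, 36.7 and 38.8 CPM and Tek of 12.4, 13.6, 13.5 and 13.9 CPM. Their log2 fold changes against Control lay between -0.19, for Slc2a1 on IleR, and 0.18, for Tek on ValR.

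None of the 10 genes was called between restricted diets in either sex by edgeR's quasi-likelihood test. In males the background was 0% for IleR against LeuR, 1.14% for ValR against LeuR and 0% for ValR against IleR, with 2483, 5275 and 611 genes at an unadjusted p under 0.05 and 0, 1 and 1 of the 10 genes. For IleR against LeuR and ValR against IleR in males, DESeq2 called 108 and 7 genes and limma-voom 0 and 0, with none of the 10 among them. For ValR against LeuR DESeq2 called 2496 genes and limma-voom 563, again with none of the 10. The gene with the smallest p in both ValR comparisons was Cldn5. ValR males (31.0 ± 1.14 CPM, n = 4) lay below LeuR males (39.3 ± 5.76 CPM, n = 3) and IleR males (38.1 ± 3.71 CPM, n = 3) without overlap. The log2 fold change of Cldn5 was -0.34 against LeuR (SE 0.130, adjusted p = 0.135) and -0.30 against IleR (SE 0.130, adjusted p = 1) by edgeR. Within the 9 male libraries with a cerebellum level over 4, which hold all ValR and IleR libraries and 2 of LeuR, these values were -0.46 (adjusted p = 0.166) and -0.30 (adjusted p = 0.959). These 9 libraries were not matched for region, since the ValR hindbrain scores lay above all IleR scores, and over them Cldn5 had r = -0.721 and rho = -0.617 with the score (exact permutation p = 0.0295 and 0.0857, adjusted over 50 relations 0.0969 and 0.267). Without the 2 libraries farthest from the median r was -0.480, and the part of regional makeup in the Cldn5 difference was not tested. Of all genes, 18.4% and 5.90% did not overlap in the same comparisons.

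In females the background was 0% for each pair of restricted diets, with 1250, 1011 and 840 genes at an unadjusted p under 0.05 for IleR against LeuR, ValR against LeuR and ValR against IleR (6.14%, 4.97% and 4.13% of all genes). Of the 10 genes 3, 0 and 2 were at that level, the 3 for IleR against LeuR being Mfsd2a, Cdh5 and Slc2a1 with log2 fold changes of -0.33, -0.22 and -0.24, none of them called. DESeq2 called 19, 2 and 18 genes of the table in that order and limma-voom 0, with none of the 10 among them. For ValR against IleR all 10 genes had a positive log2 fold change, with a median of 0.14 beside 0.01 over all genes, and none was called. Marker lists of other cell types moved further in that comparison, with medians of 0.63 for smooth muscle, 0.76 for meningeal fibroblasts, 1.08 for choroid plexus and 1.34 for blood. Medians below 0 were those of oligodendrocytes (-0.06), neurons (-0.09) and forebrain (-0.16). Pecam1 was at 20.6, 16.3, 19.8, 23.7 and 18.5 CPM in IleR females and ran from 21.8 to 28.9 CPM in ValR females, an overlap of 1 IleR library with the lower ValR libraries. Its log2 fold change was 0.33 (SE 0.0897, adjusted p = 0.71 by edgeR), and that of Cdh5 was 0.31 (SE 0.0980, adjusted p = 0.937). Within the 15 female libraries under the cerebellum level of 4 the values were 0.39 for Pecam1 and 0.38 for Cdh5, and within the 8 over it 0.23 and 0.19.

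Whether the diet effect differed between the sexes was tested as an interaction in all 37 libraries. None of the 10 genes was called by edgeR, beside a background of 0% for IleR, 0.00445% for LeuR (1 gene of 22465) and 4.17% for ValR (936 genes). For IleR and LeuR DESeq2 called 1040 and 316 genes and limma-voom 0 and 1, with none of the 10 among them. Cdh5 came nearest. Its ValR effect was lower in males than in females by a log2 difference of -0.56 (SE 0.174, adjusted p = 0.0562 by edgeR), and DESeq2 called it with an adjusted p of 0.0250, beside a background of 10.4% of all genes by that tool (2342 genes). By limma-voom 29 genes were called for ValR, with none of the 10 among them. Mfsd2a had a ValR difference of 0.85 (SE 0.337, adjusted p = 0.114) and a LeuR difference of 0.80 (SE 0.351, adjusted p = 0.329), higher in males. For Ocln the ValR difference was 0.54 (SE 0.422, adjusted p = 0.429), so that the rise in males was not shown to differ from the female value. Sex and the regional makeup of the male diet groups cannot be told apart in these interactions.

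The level of Ocln followed the regional makeup of the libraries in females, where it is spread over the diets. In the 8 female libraries over the cerebellum level of 4, Ocln was at 8.63 to 18.9 CPM with a median of 12.5 CPM, and in the 15 under it at 4.58 to 11.6 CPM with a median of 7.85 CPM. The sets overlap in part, and the higher set holds 2 libraries of each diet. With diet in the model, the slope of Ocln on the hindbrain score was 0.0974 log2 units per unit of score (SE 0.0139, adjusted p = 5.55e-06 by edgeR), and that of Slc2a1 was 0.0239 (SE 0.00836, adjusted p = 0.0231). The other 8 genes had slopes between -0.0037 and 0.0097 and were not called. Thus 2 of the 10 were called, where 45.8% of all 20344 genes were.

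Within the 15 female libraries under the cerebellum level, none of the 10 genes had a called slope by edgeR, beside 7.12% of 21249 genes, and that of Ocln was 0.0511 (SE 0.0674, adjusted p = 0.740). In males all 10 slopes were positive and none was called, beside 1.1% of 22197 genes, with the largest for Mfsd2a (0.186, SE 0.0523, adjusted p = 0.109) and Ocln (0.144, SE 0.0391, adjusted p = 0.0960). Correlations with the score are given within sets of libraries, since it falls into separate clusters. Among the 8 female libraries over the level, Ocln had Pearson's r = 0.939 with the score (exact permutation p = 0.000298, adjusted over 50 relations 0.00298) and Spearman's rho = 0.976 (exact permutation p = 0.000397, adjusted 0.00397). Without the 2 libraries farthest from the median r was 0.867. In the 15 under the level r was 0.265 and rho 0.454 (permutation p = 0.335 and 0.0907, adjusted 0.523 and 0.267). In the 9 males over it r was 0.676 and rho 0.383 (exact permutation p = 0.0442 and 0.312, adjusted 0.123 and 0.509), and r fell to -0.351 without 2 libraries. No other of the 10 genes passed in these sets. For the Ocln difference between ValR and Control males, diet and regional makeup cannot be told apart.

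**Figure D4:**
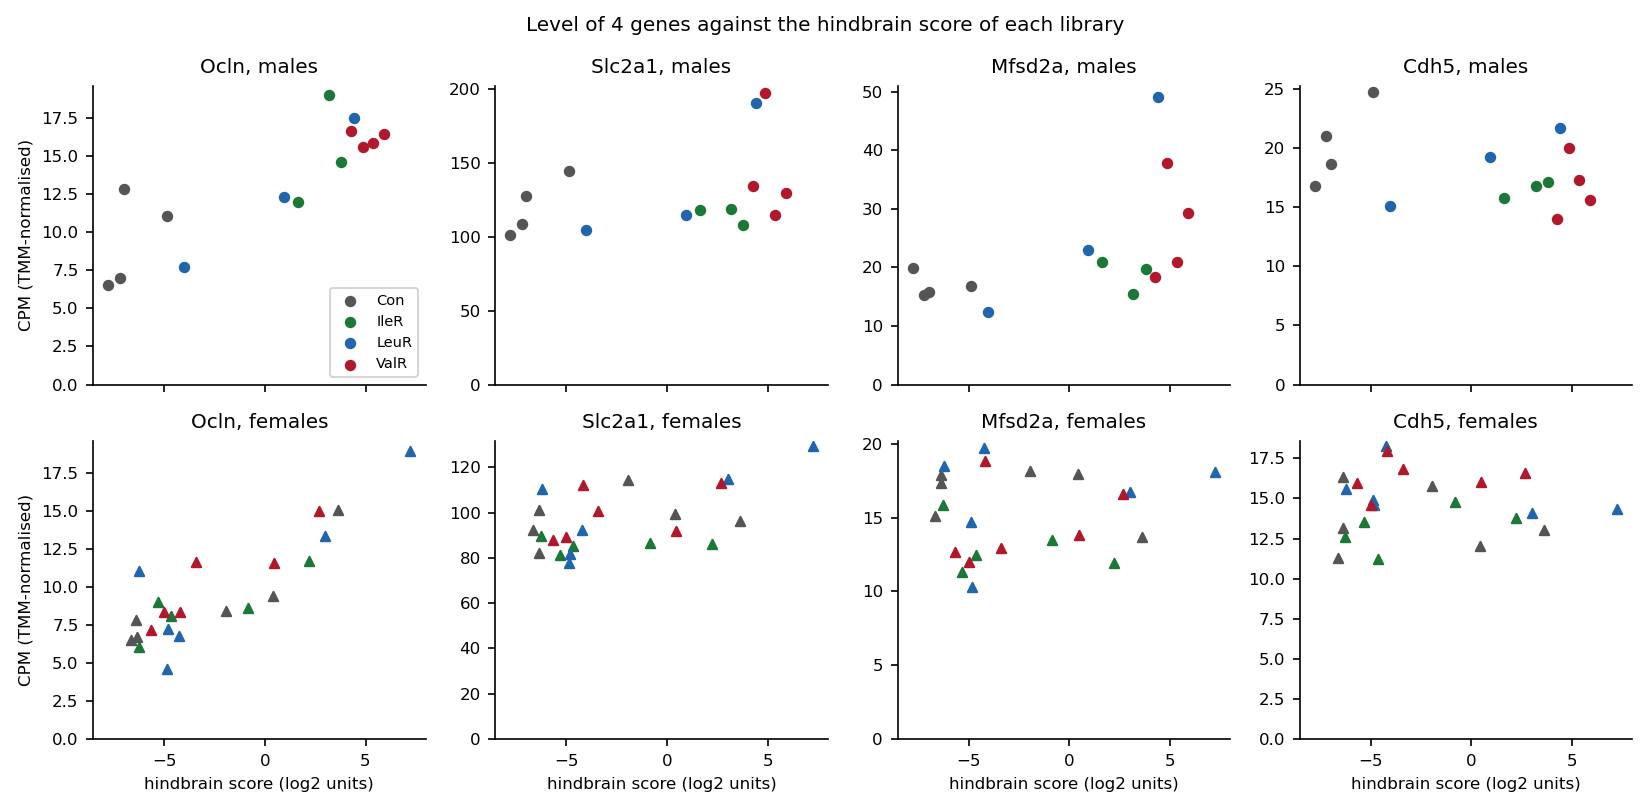
Level in CPM (y axis) of 4 of the genes against the hindbrain score (x axis, log2 units) of each library, with males in the upper row and females in the lower, coloured by diet. The score was built from fewer marker genes in females than in males. Ocln is higher in the libraries with a high score in both sexes, from 4.58 to 11.6 CPM in the 15 female libraries under the cerebellum level to 8.63 to 18.9 CPM in the 8 over it.

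How far the 10 genes moved as a set with endothelial RNA was described with a pan-endothelial score, the mean log2 CPM of 25 other endothelial genes such as Kdr, Tie1, Eng and Erg. The summed level of the 25 was 544 to 634 CPM in Control males, 480 to 547 CPM in IleR, 462 to 665 CPM in LeuR and 483 to 642 CPM in ValR, with all groups overlapping. In males, over 14 libraries, Flt1 followed the score most closely, with r = 0.950 and rho = 0.899 (permutation p = 1e-05, the smallest these permutations can give, and 4e-05; adjusted 0.000167 and 0.000667). Without the 2 libraries farthest from the median its r was 0.894. Pecam1 had r = 0.916 and rho = 0.890 (permutation p = 1e-05 and 4e-05, adjusted 0.000167 and 0.000667), and 0.822 without 2 libraries. Cdh5 had r = 0.810 and rho = 0.868 (permutation p = 0.00041 and 0.00016, adjusted 0.00342 and 0.00200), and 0.847 without 2 libraries. Slc2a1 had r = 0.764 and rho = 0.468 (permutation p = 0.00252 and 0.0933, adjusted 0.0158 and 0.267), and its r of 0.312 without 2 libraries shows that the relation rests on those. Mfsd2a had r = 0.616 and rho = 0.402 (permutation p = 0.0184 and 0.156, adjusted 0.0742 and 0.368), with r = -0.070 without 2 libraries.

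In females, over 23 libraries, Flt1 was again the closest, with r = 0.776 and rho = 0.816 (permutation p = 1e-05 for each, the smallest these permutations can give, adjusted 0.000167 and 0.000500). Tek (r = 0.71, rho = 0.653), Cdh5 (r = 0.667, rho = 0.653), Slco1a4 (r = 0.574, rho = 0.591) and Pecam1 (r = 0.558, rho = 0.639) also passed at permutation p of 0.00027, 0.00055, 0.00443 and 0.0064 for r and adjusted p of 0.00298, 0.00393, 0.0246 and 0.0320. Without the 2 farthest libraries their r was 0.557, 0.578, 0.671 and 0.431, and that of Flt1 0.679. Over all libraries of a sex Ocln had a weak relation to the score, with r = 0.108 and rho = -0.103 in males and r = 0.108 and rho = 0.041 in females (permutation p = 0.716, 0.726, 0.624 and 0.854). With the diet means removed its r was 0.455 in males and 0.048 in females. Cldn5 had r = 0.297 and rho = 0.143 in males and r = 0.283 and rho = 0.086 in females (permutation p = 0.304, 0.626, 0.191 and 0.694). The r of Cldn5 with the diet means removed was 0.538 in males and 0.365 in females. In the ValR against Control comparison of males, a fit with the score as a covariate called 4 of the 10 genes, Slc2a1 (0.34), Mfsd2a (0.73), Slco1a4 (0.41) and Ocln (0.87), and in IleR against Control 2, Slco1a4 (0.48) and Ocln (0.88), all as log2 fold changes with adjusted p of 0.0187 to 0.0447 by edgeR. In the same fits 27.4% of the 22197 genes tested were called for ValR (6083 genes) and 20.9% for IleR (4648 genes).

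**Figure D5:**
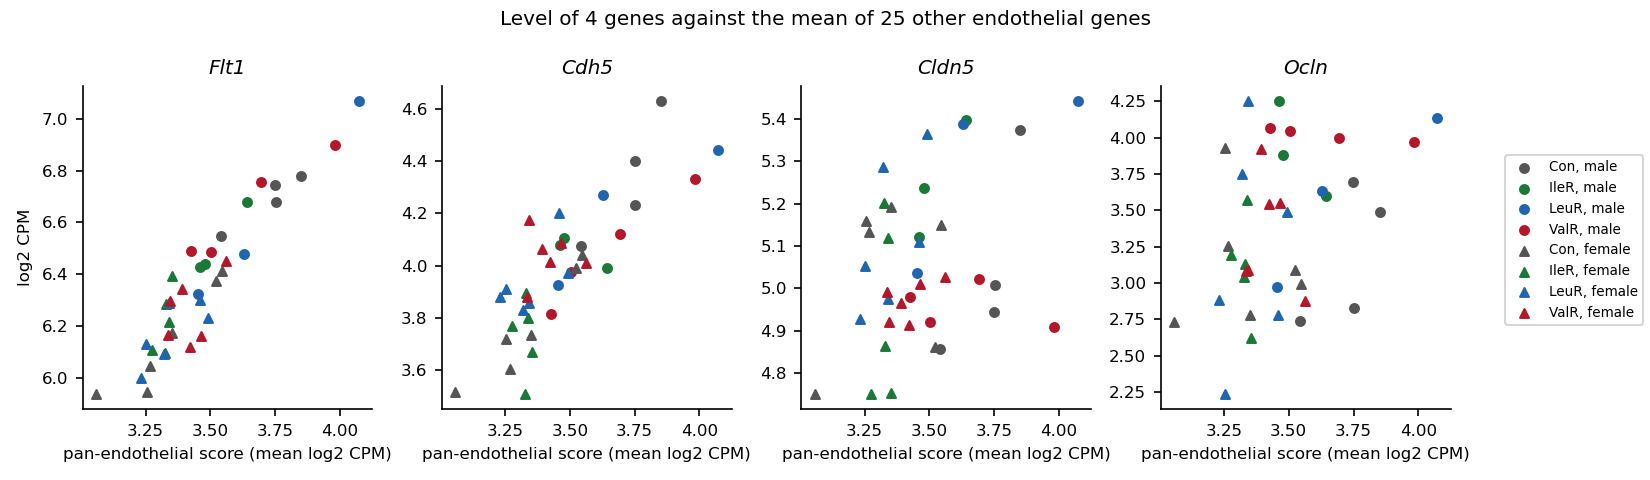
Log2 CPM (y axis) of 4 of the genes against the pan-endothelial score (x axis, mean log2 CPM of 25 other endothelial genes), 1 point per library, coloured by diet and with markers for sex. Flt1 rises with the score (r = 0.950 in 14 males and 0.776 in 23 females), whereas Ocln has r = 0.108 in each sex over all libraries.

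The 10 genes also differed in how they moved with each other. Over the 45 pairs the median Pearson's r was 0.564 in the 14 male libraries and 0.300 in the 23 female libraries. Pairs of Ocln with the other genes had a median of 0.219 in males and 0.222 in females, and pairs without Ocln 0.594 and 0.319. With the diet means removed the median over all pairs was 0.700 in males and 0.313 in females, and over pairs with Ocln 0.492 and 0.190. The closest pair was Flt1 and Pecam1 in males (0.904) and Flt1 and Tek in females (0.711), and the lowest were Cdh5 and Ocln in males (-0.089, and 0.507 with the diet means removed) and Cldn5 and Flt1 in females (-0.083). These values are descriptions over libraries that share depth and regional makeup. The spread within diets, as the SD of log2 CPM, was 0.530 for Mfsd2a and 0.398 for Ocln in males, beside a median of 0.208 over all genes ranked, and 0.507 for Ocln in females beside a median of 0.223. The other 8 genes in males had SDs from 0.173, for Cldn5, to 0.308, for Slc2a1. In females the genes besides Ocln and Mfsd2a had SDs from 0.143 to 0.191, all below the median of all genes.

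The genes whose log2 CPM was most like the mean of the 10, the members left out, were taken over libraries of a sex as a description. In males, among 13986 genes, these were Ak3 (Pearson's r = 0.970), Lcn2 (0.939), Ceacam1 (0.932), Ahcyl2 (0.931) and Rtkn2 (0.928), over 14 libraries. Without the 2 farthest libraries these were 0.919, 0.823, 0.909, 0.848 and 0.908. In females, among 13877 genes over 23 libraries, these were Vegfa (0.851), Fzd4 (0.840), Iqgap1 (0.807), Car13 (0.804) and Cd164 (0.799), and without the 2 farthest libraries 0.830, 0.828, 0.738, 0.712 and 0.752. Vegfa codes for the growth factor that FLT1 binds, and Fzd4 for the endothelial receptor of norrin.

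The other genes of the barrier were read from lists. Of 14 tight junction partners, 5 rose and none fell in IleR against Control males, 3 rose and none fell in LeuR, and 4 rose and 1 fell in ValR, beside the backgrounds given above. Jam2, a junctional adhesion molecule, rose by a log2 fold change of 0.51 in IleR, 0.63 in LeuR and 0.62 in ValR (adjusted p = 0.00779, 0.00650 and 0.000889 by edgeR). Cgn, which codes for cingulin, rose by 1.12 in LeuR. Other called genes of the list, named after their values were seen, were Marveld2, which codes for tricellulin (1.53 in IleR and 1.60 in ValR), Jup, which codes for plakoglobin (0.80 in IleR and 1.08 in ValR), Cgn in IleR (0.94) and the scaffold gene Tjp1, which fell by 0.35 in ValR. The medians of the list were 0.09, 0.20 and 0.06.

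Of 23 further transporters and receptors of the capillary wall, 1 rose and 1 fell in IleR males, none rose and 1 fell in LeuR, and none rose and 2 fell in ValR. These shares lie below the backgrounds of 15.2%, 10% and 23.4% of all genes called, which apply to the other lists of these comparisons as well. Slc39a10, a zinc importer, fell on all 3 diets (log2 fold changes of -1.44, -1.22 and -1.65), and Slc7a1, a carrier of cationic amino acids, rose by 0.63 in IleR. Of 12 genes of vesicle transport and leaky vessels, Ackr1 rose by 0.79 in IleR and 1.06 in ValR and Cav2, a caveolin, fell in both (-0.92 and -1.02), with no call in LeuR. Of 19 genes of Wnt signalling and barrier induction, 2 rose and 1 fell in IleR, 1 fell in LeuR, and 3 rose and 4 fell in ValR. Wnt7a, a ligand that induces the barrier, rose by 1.83 in IleR and 2.26 in ValR, while Tnfrsf19, a Wnt target, fell on every restricted diet (-1.24, -0.96 and -1.24). Other called genes, named after their values were seen, were Ndp, which codes for norrin (0.58 in ValR), and, among those that fell in ValR, Wnt7b (-0.93), Lef1 (-1.05) and Tcf7 (-1.02).

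Of 12 ligands and partner receptors of FLT1 and TIE2, 1 rose in each comparison against Control and 1 fell in ValR, beside the same 15.2%, 10% and 23.4% of all genes called in IleR, LeuR and ValR. Angpt1, the angiopoietin that activates TIE2, rose by 1.38 in IleR and 1.34 in ValR, Pgf, a ligand of FLT1, rose by 1.64 in LeuR, and Nrp1, a VEGF co-receptor, fell by 0.78 in ValR. The 25 pan-endothelial genes had none that rose, and 1, 1 and 2 that fell, with Cd34, a surface sialomucin, at -1.55, -1.34 and -1.47 and S1pr1, a sphingosine-1-phosphate receptor, at -0.33 in ValR. Among 12 pericyte genes, Notch3 rose by 0.57 in LeuR and Abcc9 by 0.63 in ValR. Many of these genes are also made by neurons or glia. In the same comparisons the cerebellum list had 11 of 11 genes that rose in IleR and 9 in LeuR, and the forebrain list had 11 of 12 that fell in IleR and 6 in LeuR, beside the ValR counts given above, and the part of regional makeup in these lists was not tested.

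Lists of other cell types differed in males. No gene of the smooth muscle, choroid plexus, meningeal fibroblast, oligodendrocyte or blood lists was called against Control. Of 10 astrocyte genes 3, 2 and 4 rose in IleR, LeuR and ValR and 1 fell in each (Slc1a2, at -0.97, -0.95 and -1.08), of 10 microglia genes 3, 0 and 5 fell, and of 8 neuron genes 1 rose in each and 1, 1 and 2 fell, beside backgrounds of 15.2%, 10% and 23.4% of all genes called. The summed blood list ran from 588 to 4130 CPM in Control males and from 2536 to 19676 CPM in LeuR males, and the choroid plexus list from 27.2 to 3099 CPM in Control males and from 97.9 to 4986 CPM in LeuR males. In females 0 genes of any list were called in any comparison by edgeR.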

How the data were processed

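RNA-seq was run on the brain of 3xTg mice of both sexes. The labels name polyA-enriched stranded libraries in 1 field and total RNA in another, and their extraction text names liver. The authors aligned reads to GRCm38.p5 and deposited expected counts per Ensembl gene, in a table per sex, and removed samples they judged outliers. The submitters' processing notes name R 3.4.3, edgeR and limma. Of the deposited values, 3.69 to 4.93% per library were not whole and all were rounded. The deposited tables of differential expression hold the authors' log2 fold changes, p-values and adjusted p-values and were not used. No column of the count tables was left unmapped. Symbols and positions came from GENCODE M21, which matched 52083 of 55416 identifiers, and promoters from RefSeq (GRCm38.p6).

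A gene entered the tests if all libraries of some diet had 1 count or more. Tests were run in R 4.3.3 with edgeR 4.0.16 (TMM scaling, robust quasi-likelihood fit, 4 diets of a sex in 1 fit, Benjamini-Hochberg adjusted p under 0.05), and the interaction in 37 libraries. Log2 CPM used a prior count of 2. DESeq2 1.42.0, limma-voom (limma 3.58.1), RLE size factors, other filters, score covariates, fits of only the compared diets and leaving out each library were alternatives. Fits within libraries under or over a cerebellum list mean of 4 log2 CPM were chosen after seeing the data. Correlations used permutations in Python 3.11.15 with scipy 1.17.1, exact under 10 libraries and with 100000 resamples otherwise. The fits were tested on simulated data. In 73 pairs of replicate libraries chi-square per gene was at least 8.43, so no library was taken as a duplicate. The genes and lists were chosen with earlier results of these data known. All 10 genes were named, with at most 2 called genes of a list per comparison by smallest p (further list genes are said in the text to be named after their values were seen), and the 5 genes per sex most like the mean of the 10. Some called genes of the lists are counted but not reported by name here.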

Additional observations from a re-analysis of the deposited data

Results flagged for a closer look

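Of 60 groups of 4 to 6 libraries tested for a library far from the rest, 2 had one, where chance flags about 1 group in 20. Pecam1 in the female library LeuR 47 was at 19.6 CPM, the lowest of 6 LeuR females, and its gap to the nearest library (LeuR 43, 22.2 CPM) took up 0.660 of the range of the group. The same library also had the lowest Ocln level of all females, 4.58 CPM. Tek in the male library Con 4 was at 16.0 CPM, the highest of 4 Control males, with the nearest library (Con 5) at 13.3 CPM and a gap of 0.860 of the range. Con 4 was also the highest Control male for Cldn5 (41.4 CPM), Pecam1 (37.6 CPM), Slc2a1 (145 CPM), Cdh5 (24.7 CPM), Flt1 (110 CPM) and Abcb1a (61.4 CPM). It was not the highest for Ocln, Mfsd2a or Slco1a4. The hindbrain score of Con 4, -4.87, was the highest of the 4.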

How the results depend on the processing

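For ValR against Control in males, 1 of the 10 genes was called as reported, 0 with the hindbrain score as a covariate, 4 with the pan-endothelial score as a covariate (where 6083 of all 22197 genes were called), and 0 to 1 when each library was left out in turn. The hindbrain covariate reversed Ocln in that comparison, to a log2 fold change of -0.90. For IleR against Control in males the count was 0 as reported and 2 with the pan-endothelial covariate (4648 of all genes), and for LeuR it was 0 to 1 over the libraries left out (Cldn5 without Control 4 and Mfsd2a without LeuR 21, in fits that called 3902 and 3311 genes). The diet by sex interaction, with 0 genes called as reported, had 1 with DESeq2 (Cdh5, in the ValR term, where that tool called 2342 of 22465 genes) and 2 with the pan-endothelial covariate (Mfsd2a and Cdh5, both in the ValR term, with 1039 genes called). The cause of these changes was not tested. The other counts of called genes kept their side of the threshold, 73 of them under other settings and 138 with 1 library left out. Several of these counts can come from the same fit. Of the log2 fold changes of single genes, 534 of those under other settings kept direction or stayed uncalled, 5 became called and 1 reversed. Of those with 1 library left out 1100 stayed, 2 became called and 8 lost the call, all 8 for Ocln in ValR males. A change of sign was counted as reversed only where a fit called the gene. With the hindbrain covariate all 10 genes had a negative value on each restricted diet in males, whatever their sign without it, and none was called. On ValR, Mfsd2a went from 0.65 to -1.57 and Slc2a1 from 0.26 to -0.79. Genes called over the whole table in males fell to 3, 13 and 0 for IleR, LeuR and ValR with the hindbrain covariate, from 3381, 2221 and 5204. No paired analysis was possible because the replicate numbers in the labels are all different and pair no samples. Ocln had the lowest counts of the 10 genes, with 70 to 390 per library.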
